A study of Homo sapiens with 6 samples.

Results

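The genes described here are 38 genes of DNA replication and of the E2F transcription programme, taken as a list of symbols, among 27134 genes measured in KM12 cells. All 38 were found and tested. KM12 is an established human colorectal cancer cell line. One group of 3 libraries came from KM12 cells labelled as overexpressing CDO1, and the other 3 came from mock cells of the same line. CDO1, an enzyme of cysteine breakdown, adds oxygen to the sulfur of that amino acid. Both groups were at passages 10 to 15, no drug or time course is given, and the labels do not say how CDO1 was introduced, whether the cells are 1 clone, or whether replicates are separate cultures. The p-values therefore cover only the spread among the 6 libraries, which may be technical.

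Cells license their replication origins in G1, when ORC, CDC6 and CDT1 load the ring of MCM2 to MCM7 onto DNA. In S phase CDC45 and the GINS complex turn that ring into the active helicase, polymerases copy the strands around the PCNA clamp, and flap nucleases and ligase join the pieces of the lagging strand. Many of these genes are transcribed together at the G1 to S boundary by E2F factors, which are held back by the RB family until cyclin-dependent kinases, with cyclin E among their partners, release them. Dividing cells express this programme, and colorectal tumours often do so at high levels. The comparison asks whether transcripts of the programme differ in level between CDO1-overexpressing and mock cells.

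The E2F sequence is shown for genes that the results below turn on, since it is what many of these genes share. Promoters were read from RefSeq on GRCh38.p14, from 250 bases before to 50 bases after each start, and 34 of the 38 genes had one. MCM4, MCM5, GINS4 and CCNE2 had none. The octamers TTTCCCGC, TTTGGCGC, TTTCGCGC and TTTGCCGC, searched on both strands, occurred in 20 of the 34 genes (58.8%). The same search found them in 3.99% of 27305 genes with a promoter, and in 3.31% of all 35116 promoter windows. The sequences run 5′ to 3′ on the strand of the gene, and capitals mark each octamer in either orientation. A position counts bases from the transcription start to the octamer's first base.
CDT1: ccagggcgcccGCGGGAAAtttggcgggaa
LIG1: acttcacccctTTTCCCGCcctcctcccat
UHRF1: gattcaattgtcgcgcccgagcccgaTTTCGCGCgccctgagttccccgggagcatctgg
MCM6: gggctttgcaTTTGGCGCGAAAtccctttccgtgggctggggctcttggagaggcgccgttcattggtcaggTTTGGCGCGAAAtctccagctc
POLA2: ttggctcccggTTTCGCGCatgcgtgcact
PCNA: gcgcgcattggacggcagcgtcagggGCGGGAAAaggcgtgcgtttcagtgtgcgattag
E2F1: ctttcGCGGCAAAaaggaTTTGGCGCgtaa
E2F2: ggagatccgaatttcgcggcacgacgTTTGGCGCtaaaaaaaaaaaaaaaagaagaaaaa

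The CDT1 stretch lies at chr16:88803743-88803772 on the plus strand, with its octamer at -35. The LIG1 stretch lies at chr19:48170440-48170469 on the minus strand, with its octamer at -114. UHRF1 is shown at chr19:4909958-4910017 on the plus strand, at -160 from one of its starts. The MCM6 stretch, at chr2:135876512-135876605 on the minus strand, holds 4 octamers, at -152, -148, -90 and -86. They form pairs that overlap on opposite strands. The POLA2 stretch lies at chr11:65261898-65261927 on the plus strand (-53), and that of PCNA at chr20:5126648-5126707 on the minus strand (-59). E2F1, at chr20:33686394-33686423 on the minus strand, has octamers at -33 and -20, and E2F2, at chr1:23531242-23531301 on the minus strand, has its octamer at -42. Of the 6 genes that passed the test below, 5 had an octamer in the window, and RRM1 had none. Among all 34 genes with a promoter, passed or not, 20 had an octamer, and a link between octamers and calls was not tested. A match is a description of the letters and does not show that a factor binds there.

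Other promoter letters differed between the 38 genes and the mitosis genes of a separate list. The octamers were found in 3 of 30 mitosis genes with a promoter. The hexamer TTTGAA, the core letters of the CHR element of genes expressed in G2 and mitosis, was found in 1 of the 34 replication and E2F genes (2.94%), in 23 of the 30 mitosis genes and in 18.2% of all genes. The pentamer CCAAT, a common promoter box, was found in 18 of the 34 (52.9%), in 24 of the 30 and in 39.7% of all genes. These shares are counts of letters on both strands, with no test.

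Values are normalised counts, the reads of a gene divided by the size factor of its library. Reads in genes totalled 17516640 to 22198173 per library, and the 38 genes had 175 to 16647 reads in single libraries. CDO1 itself (ENSG00000129596, chromosome 5, 115804733 to 115816954) matched the labels, at 2484, 2336 and 2333 with CDO1 and at 68.11, 0 and 0 in mock. For mock replicates 2 and 3, counting error alone leaves room for 3 reads, a normalised count of 2.93 in the one and 3.39 in the other. The epithelial markers EPCAM, CDH1, KRT8, KRT18, KRT19, VIL1, CDX2 and HNF4A were all present. Their summed level was 190774 to 204940 with CDO1 and 142773 to 151572 in mock. KRT8 made up most of that sum, with means of 122713 with CDO1 and 86833 in mock. KRT19 alone was not called, at 27302 and 28658, and the others were called higher with CDO1. Markers of other cells were low: sums over the 3 fibroblast markers measured were 139 to 155 with CDO1 and 204 to 312 in mock, over 4 white blood cell markers 7.35 to 14.2 and 17 to 23.3, and over 4 endothelial markers 51.3 to 77.7 and 27.3 to 82.4. None of the measured markers was at 0 in every mock library, and their part in the results was not tested. COL1A2, COL3A1, DCN, LUM, PTPRC and CD3E were looked up too, but no row could be matched to them, so they were not analysed here.

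The replication and E2F genes as a group stayed close to their mock level, and 6 of the 38 (15.8%) differed at an adjusted p under 0.05 in limma. RRM1, MCM6 and POLA2 were higher with CDO1, and CDT1, LIG1 and UHRF1 were lower. The other 32 did not pass. The background was larger: limma called 24.0% of the 21775 genes tested, 11.3% as higher and 12.7% as lower. Among the 9457 genes at least as abundant as the scarcest of the 38 (a mean of 222), it called 35.9%. An unadjusted p under 0.05 was seen for 11 of the 38 (28.9%), against 34.2% of all genes tested and 48.1% of the abundant ones. With library totals set equal, the split of calls was 2 higher and 4 lower, as POLA2 no longer passed and E2F2 did, and 23.6% of all genes were called.

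The size of the differences was small for most of the 38 genes. The log2 fold changes, CDO1 minus mock, ran from -0.62 to 0.31 with a median of 0.00, beside a median of -0.00 over all genes tested and of 0.03 over the genes of at least their abundance. The median absolute log2 fold change was 0.09, beside 0.24 and 0.13 in the same 2 sets. For 32 of the 38 (84.2%) the 95% interval of the difference lay wholly within 1.25-fold either way, a limit chosen after the values were seen, against 28% of all genes and 61.8% of the abundant ones. CDT1, RRM1, POLE2, E2F2, CCNE2 and UHRF1 were the 6 whose interval reached past it. CDT1 alone (2.63%) had an estimate beyond 1.25-fold, against 40.6% of all genes and 16% of the abundant ones. The abundant set was cut at the scarcest of the 38, whose means reached 14803, and was not matched to their levels. Intervals tend to be narrower for genes with more reads, so these shares are not a like comparison. No test of the 38 as a set was made.

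**Figure D1:**
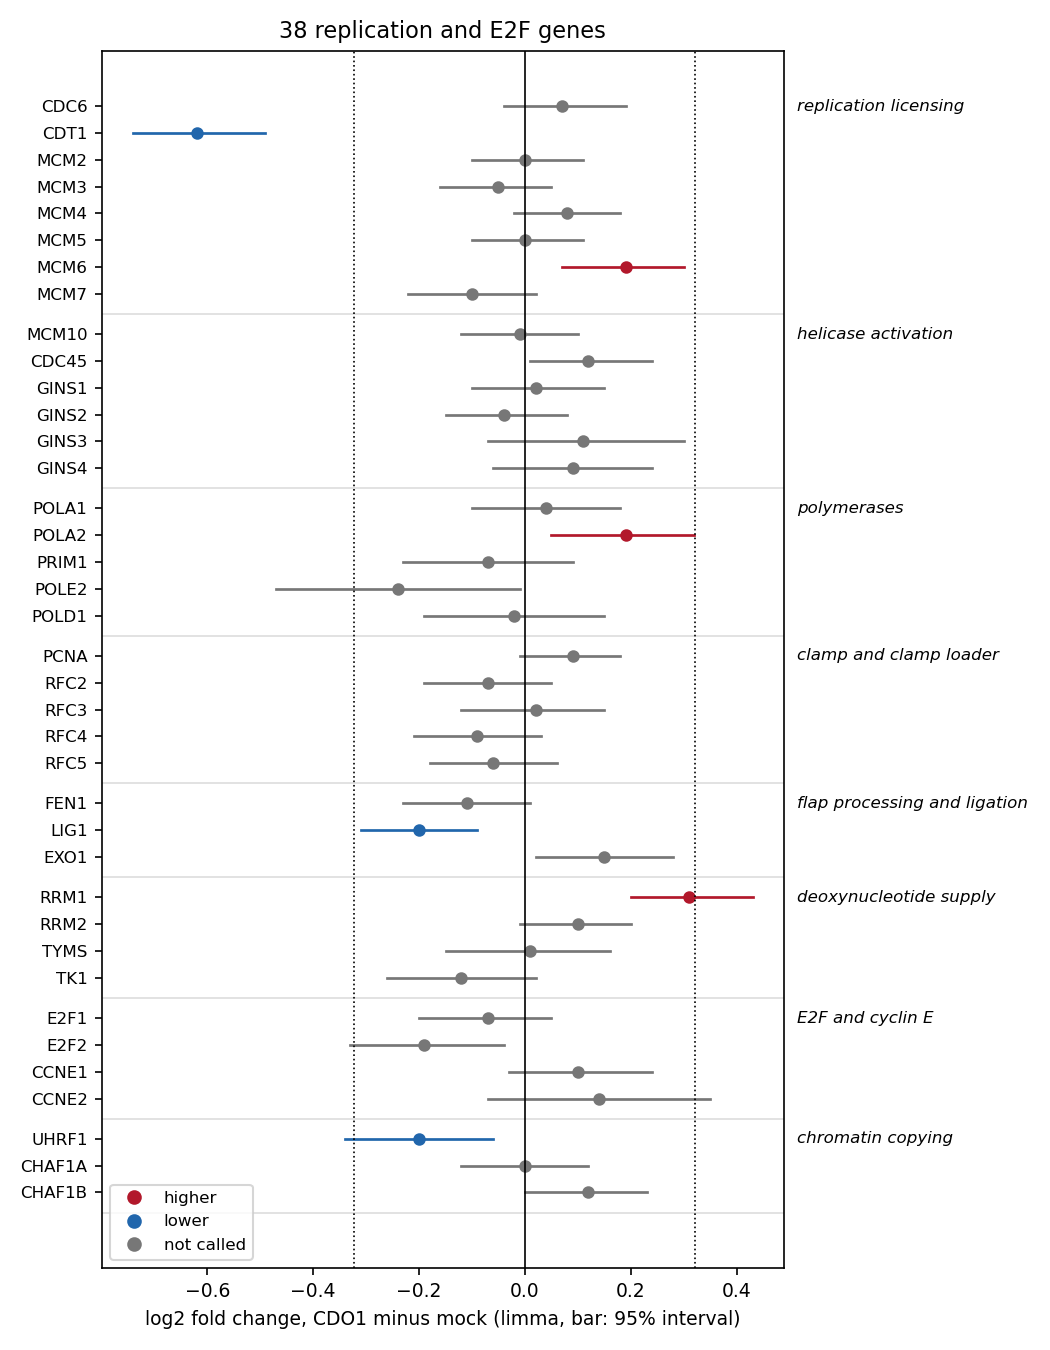
Log2 fold change (CDO1 minus mock, horizontal axis) of each of the 38 genes in limma with its 95% interval, grouped by role; red and blue mark genes that passed an adjusted p of 0.05 as higher or lower, grey those that did not, and dotted lines mark 1.25-fold. CDT1, at -0.62, stands apart to the left, and 32 intervals lie wholly between the dotted lines.

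Summed over the 38 genes, the normalised counts were 121966, 127267 and 125866 with CDO1 and 125253, 128330 and 124435 in mock. The means were 125033 ± 2747 and 126006 ± 2054 (SD, n = 3), and the groups overlapped. As a share of all reads in genes the sum was 0.617% ± 0.0097 with CDO1 and 0.634% ± 0.0075 in mock (SD, n = 3). The shares were 0.607%, 0.627% and 0.617% with CDO1 and 0.631%, 0.642% and 0.628% in mock, so that here every CDO1 library lay below every mock library, CDO1 replicate 2 narrowly. A share also depends on the total over all other genes, and the normalised sums overlapped, so the lower share need not mean less of these transcripts. The source of the lower share was not tested. RNA from a whole culture cannot tell a change in the number of cells in S phase from a change in transcript per cell. The groups did not overlap for 14 of the 38 genes (36.8%), 9 of them higher and 5 lower with CDO1. The same was true of 37.1% of all genes and of 49.6% of the genes of at least their abundance.

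Among the licensing genes, CDT1 fell, MCM6 rose, and CDC6 and the other MCM genes did not pass. CDT1 (ENSG00000167513, GRCh38 chromosome 16, 88803213 to 88809258), the loader that brings the MCM ring to the origin, had normalised counts of 1845, 1901 and 1959 with CDO1 and of 2909, 3141 and 2707 in mock. Every CDO1 library was below every mock library. The means were 1901 ± 57 and 2919 ± 217 (SD, n = 3), 1.54-fold lower with CDO1, with a log2 fold change of -0.62 (SE 0.06, adjusted p = 1.11e-07 in limma). CDT1 was called lower in all 20 alternative settings, with log2 fold changes from -0.67 to -0.44. The value of -0.44 (adjusted p = 1.29e-08 in limma) came with each library's trend on GC content removed, and CDT1 is, at 64.9% GC, among the most GC-rich of the 38.

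MCM6 (ENSG00000076003, chromosome 2, 135839626 to 135876426), a subunit of the helicase ring, had normalised counts of 5287, 4980 and 5364 with CDO1 and of 4717, 4301 and 4739 in mock. The groups did not overlap. The mean was 1.14-fold higher with CDO1, with a log2 fold change of 0.19 (SE 0.05, adjusted p = 0.0151 in limma). The call was lost without CDO1 replicate 1 (adjusted p = 0.0723 in limma) or CDO1 replicate 3 (adjusted p = 0.0943 in limma), within a range of 0.00101 to 0.0943 over the 20 alternatives.

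The other subunits of the ring sat near their mock level. MCM2 had normalised counts of 8656, 9259 and 8939 with CDO1 and of 8863, 9335 and 8577 in mock (log2 fold change 0.00, 95% interval -0.10 to 0.11). MCM5 had 6378, 6908 and 6518 with CDO1 and 6448, 6862 and 6469 in mock (log2 fold change 0.00, -0.10 to 0.11). The 2 groups overlapped for both genes. MCM3 had 7297, 7295 and 7873 with CDO1 and 7900, 7453 and 7936 in mock (log2 fold change -0.05, -0.16 to 0.05). MCM7, the most abundant of the 38 by count, had 13422, 15348 and 14158 with CDO1 and 14919, 16151 and 14822 in mock (log2 fold change -0.10, -0.22 to 0.02). Replicate 2 was the highest library of its group for MCM7 on both sides, and the groups overlapped. MCM4 did not overlap, with 8693, 8717 and 9153 with CDO1 and 8494, 8227 and 8381 in mock, and its log2 fold change of 0.08 (-0.02 to 0.18) did not pass (adjusted p = 0.253 in limma). CDC6, the partner of CDT1 in loading, had 2623, 2572 and 2672 with CDO1 and 2547, 2348 and 2587 in mock, a log2 fold change of 0.07 (-0.04 to 0.19, adjusted p = 0.373 in limma). CDT1 thus lay below every other licensing gene in fold change, and a difference between genes was not tested.

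None of the 6 helicase activation genes passed. CDC45, a subunit of the active helicase, had normalised counts of 1168, 1163 and 1149 with CDO1 and of 1081, 1051 and 1059 in mock. The groups did not overlap and were tight, with a log2 fold change of 0.12 (SE 0.06, adjusted p = 0.125 in limma). MCM10, which helps the helicase start, had a log2 fold change of -0.01 (95% interval -0.12 to 0.10). The GINS subunits lay between -0.04 for GINS2 and 0.11 for GINS3, with GINS1 at 0.02 and GINS4 at 0.09, and all 4 overlapped between groups.

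Of the 5 polymerase genes only POLA2 passed. POLA2 (ENSG00000014138, chromosome 11, 65261762 to 65305589), the regulatory subunit of the polymerase alpha that starts new strands, had normalised counts of 1216, 1110 and 1290 with CDO1 and of 1083, 1060 and 1031 in mock. All CDO1 libraries were above all mock libraries, replicate 2 narrowly. The log2 fold change was 0.19 (SE 0.06, adjusted p = 0.0399 in limma). The call was lost without CDO1 replicate 1 (0.126), CDO1 replicate 3 (0.226), mock replicate 1 (0.0793) or mock replicate 3 (0.0761), as adjusted p in limma, and in DESeq2 on the recovered reads (adjusted p = 0.0523). Another annotated gene, AP000944.2, shares 35.1% of the exon bases of POLA2, so reads could be split between them.

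The other polymerase subunits did not pass at the deposited scaling. POLA1, the catalytic subunit of polymerase alpha, had a log2 fold change of 0.04 (95% interval -0.10 to 0.18), and PRIM1, the primase that lays the RNA primer, of -0.07 (-0.23 to 0.09). POLE2, an accessory subunit of the leading-strand polymerase epsilon, was scarce, at 313, 247 and 249 with CDO1 and 344, 266 and 346 in mock. The groups overlapped, and the log2 fold change of -0.24 (SE 0.11, adjusted p = 0.136 in limma) passed without CDO1 replicate 1 (-0.35, adjusted p = 0.0469 in limma), without mock replicate 2 (-0.36, adjusted p = 0.00815 in limma) and with the GC trend removed (-0.27, adjusted p = 0.0331 in limma). POLD1, the catalytic subunit of polymerase delta, had 3692, 4050 and 3575 with CDO1 and 3794, 4524 and 3252 in mock. Mock replicate 2 was the highest and mock replicate 3 the lowest of all 6 libraries. Its log2 fold change was -0.02 (-0.19 to 0.15, adjusted p = 0.894 in limma), and 0.15 (adjusted p = 0.00851 in limma) with the GC trend removed, so that its direction turned.

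PCNA, the sliding clamp that holds polymerases on DNA, had normalised counts of 7327, 7385 and 7562 with CDO1 and of 6953, 6892 and 7147 in mock. The groups did not overlap, yet the difference was small, a log2 fold change of 0.09 (95% interval -0.01 to 0.18, adjusted p = 0.22 in limma). None of the clamp loader genes passed. RFC2 had a log2 fold change of -0.07 and RFC4 of -0.09, both with every CDO1 library below every mock library, while RFC3 at 0.02 and RFC5 at -0.06 overlapped.

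LIG1 fell and the flap nucleases did not pass. LIG1 (ENSG00000105486, chromosome 19, 48115445 to 48170603), the ligase that seals Okazaki fragments, had normalised counts of 2149, 2251 and 2171 with CDO1 and of 2490, 2606 and 2459 in mock. The groups did not overlap, and the mean was 1.15-fold lower with CDO1 (log2 fold change -0.20, SE 0.05, adjusted p = 0.00717 in limma). The call held in all 20 alternatives. FEN1, the nuclease that trims the flaps, had 2477, 2816 and 2512 with CDO1 and 2853, 2688 and 2886 in mock, and a log2 fold change of -0.11 (-0.23 to 0.01, adjusted p = 0.182 in limma). It passed as lower only without CDO1 replicate 2 (-0.17, adjusted p = 0.0449 in limma), among the alternatives tried. EXO1, an exonuclease of replication and mismatch repair, had 1092, 1067 and 1079 with CDO1 and 963, 926 and 1033 in mock. It did not overlap between groups, and its log2 fold change of 0.15 (SE 0.06, adjusted p = 0.086 in limma) passed without mock replicate 3 (0.19, adjusted p = 0.0259 in limma) and with the replicate number as a block (adjusted p = 0.0495 in limma).

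RRM1 had the largest rise of the 38 genes. RRM1 (ENSG00000167325, chromosome 11, 4094707 to 4138876), the large subunit of ribonucleotide reductase, which makes deoxynucleotides from ribonucleotides, had normalised counts of 5607, 5743 and 6029 with CDO1 and of 4644, 4389 and 4962 in mock. Every CDO1 library was above every mock library. The means were 5793 ± 216 and 4665 ± 287 (SD, n = 3), 1.24-fold higher with CDO1, with a log2 fold change of 0.31 (SE 0.05, adjusted p = 0.000194 in limma), and the call held in all 20 alternatives. RRM2, the small subunit whose level follows S phase, had 9206, 8985 and 9231 with CDO1 and 8435, 8310 and 8924 in mock. It did not overlap either, but its log2 fold change of 0.10 (95% interval -0.01 to 0.20) did not pass (adjusted p = 0.176 in limma). AC007240.1 shares 20.2% of the exon bases of RRM2, so reads could be split between them. The intervals of the 2 subunits met at their ends, and the difference between them was not tested.

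TYMS, which makes thymidylate, had normalised counts of 1052, 960 and 956 with CDO1 and of 950, 911 and 1104 in mock, and a log2 fold change of 0.01 (95% interval -0.15 to 0.16). Its value is uncertain, since ENOSF1 and TYMSOS share 46.6% of its exon bases. TK1, the thymidine kinase of the salvage route, had 8368, 9352 and 8862 with CDO1 and 9374, 10863 and 8762 in mock. Mock replicate 2 was the highest library, the groups overlapped, and the log2 fold change was -0.12 (-0.26 to 0.02, adjusted p = 0.208 in limma). It passed without mock replicate 3 (-0.19, adjusted p = 0.0224 in limma), and with the GC trend removed it was 0.02.

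**Figure D2:**
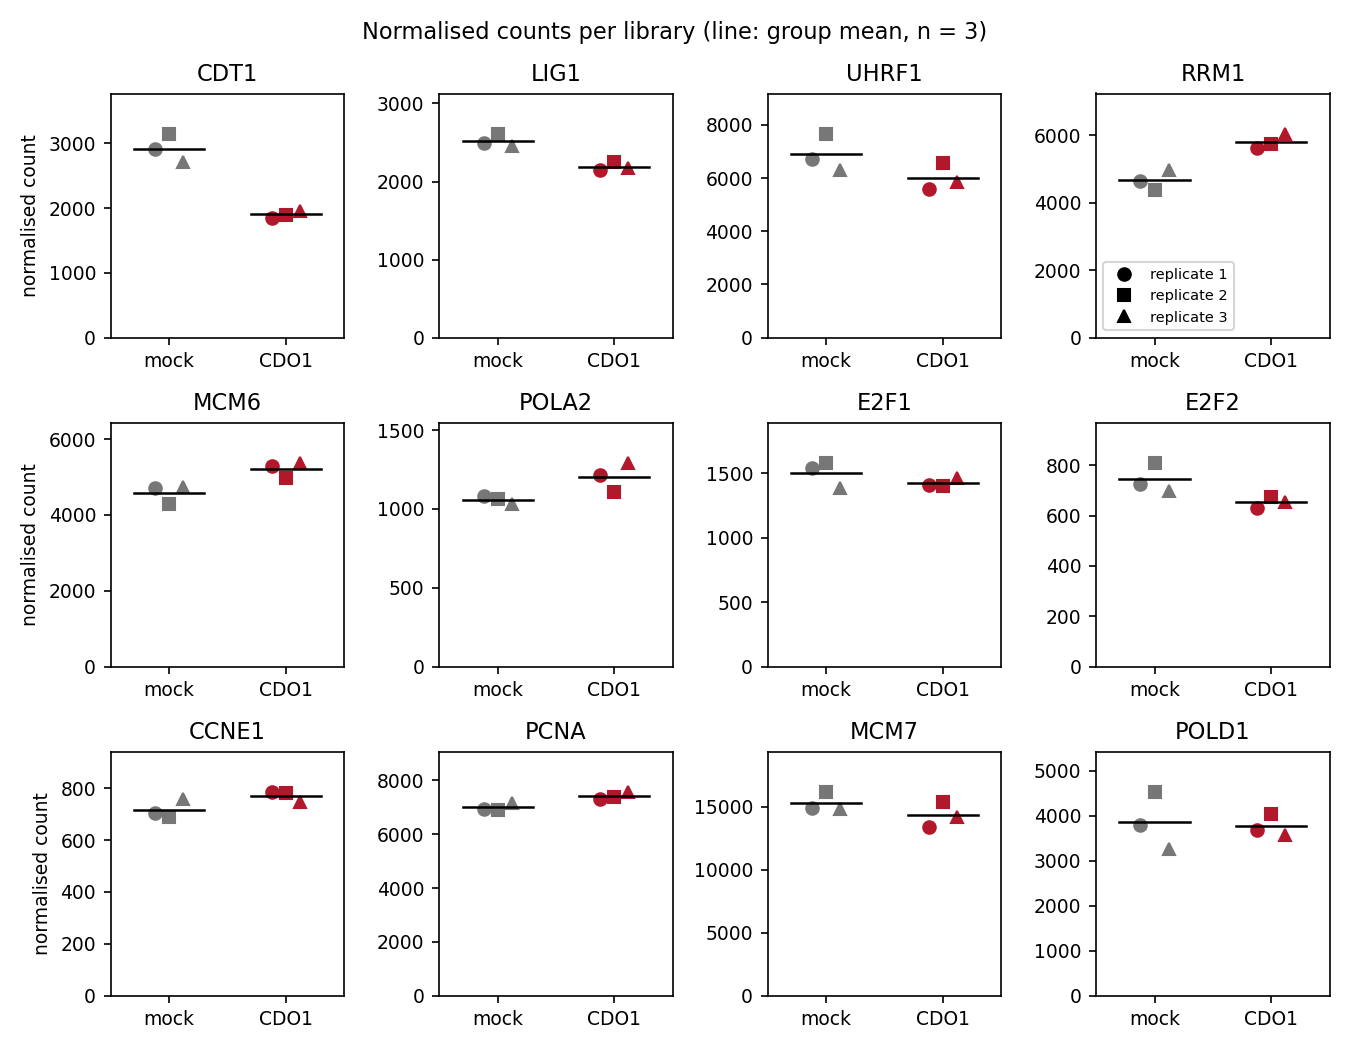
Normalised count per library (vertical axis, from 0) in mock (grey) and CDO1 (red) cells for 12 of the genes; marker shapes give the replicate number and lines the group mean of 3 libraries. CDT1 shows the widest gap between groups, RRM1, MCM6, LIG1 and PCNA separate by less, and E2F1 and POLD1 overlap.

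The genes at the head of the programme, E2F1, E2F2, CCNE1 and CCNE2, did not pass. E2F1, an activator of G1 to S transcription, had normalised counts of 1409, 1401 and 1461 with CDO1 and of 1541, 1577 and 1382 in mock. The groups overlapped, with a log2 fold change of -0.07 (95% interval -0.20 to 0.05, adjusted p = 0.439 in limma). E2F2, a second activator, had 629, 674 and 654 with CDO1 and 725, 808 and 698 in mock. The groups did not overlap, and the log2 fold change was -0.19 (-0.33 to -0.04, adjusted p = 0.0616 in limma). In edgeR on the recovered reads the adjusted p of E2F2 was 0.0445, so that edgeR called 7 of the 38, the same 6 and E2F2, against 35.7% of the genes it tested. E2F2 also passed without mock replicate 3 (-0.23, adjusted p = 0.0221 in limma) and with the replicate number as a block (adjusted p = 0.0292 in limma), while with the GC trend removed its log2 fold change was -0.12 (adjusted p = 0.1 in limma).

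CCNE1, the cyclin that drives CDK2 at the start of S phase, had normalised counts of 785, 782 and 746 with CDO1 and of 705, 689 and 758 in mock (log2 fold change 0.10, 95% interval -0.03 to 0.24). CCNE2, the second cyclin E and the scarcest of the 38, had 229, 259 and 210 with CDO1 and 211, 223 and 198 in mock (log2 fold change 0.14, -0.07 to 0.35). The groups overlapped for both cyclins. INTS8 and AC087752.4 share 37.1% of the exon bases of CCNE2, so its value is uncertain.

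UHRF1 (ENSG00000276043, chromosome 19, 4903080 to 4962154), which brings DNA methyltransferase to freshly copied DNA, was the third gene called lower. It had normalised counts of 5596, 6556 and 5862 with CDO1 and of 6713, 7654 and 6309 in mock. The groups overlapped, since CDO1 replicate 2 lay above mock replicate 3, and replicate 2 was the highest on both sides. The log2 fold change was -0.20 (SE 0.07, adjusted p = 0.0379 in limma). The call was lost without CDO1 replicate 1 (0.206), CDO1 replicate 3 (0.146), mock replicate 1 (0.0688) or mock replicate 2 (0.144), as adjusted p in limma, against a range of 0.000362 to 0.206 over the alternatives. The subunits of the CAF-1 histone chaperone, which packs new DNA into nucleosomes, did not pass. CHAF1A had a log2 fold change of -0.00 (95% interval -0.12 to 0.12), and CHAF1B, with no overlap between groups, of 0.12 (adjusted p = 0.138 in limma).

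The authors' deposited table gave an adjusted p under 0.05 for 5 of the 38 genes, and for 15.9% of all genes. These 5, of which 2 were higher and 3 lower, were among the 6 called in limma. Both tests used the same counts, so the match is not independent support. In the authors' deposited table CDT1 had a log2 fold change of -0.60 (adjusted p = 7.24e-19), RRM1 of 0.31 (1.1e-06), LIG1 of -0.20 (0.00338), MCM6 of 0.18 (0.007) and UHRF1 of -0.19 (0.0265). For POLA2 the authors' deposited table has a log2 fold change of 0.18 with adjusted p = 0.0505.

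Levels of different genes can be compared only per length, as the normalised count per kilobase of annotated exon. On that scale TK1 (5194 in mock, 4761 with CDO1) and PCNA (4757 and 5047) were the highest of the 38, followed by MCM7 (3488 and 3263), MCM3 (2127 and 2052) and MCM2 (1821 and 1826). TK1 was above PCNA in mock and below it with CDO1. The subunits of the ring were not equal in level per kilobase, from 898 for MCM5 to 3488 for MCM7 in mock. RRM2, at 1607 in mock and 1717 with CDO1, was above RRM1, at 1117 and 1387. CDT1 moved from 875 in mock to 570 with CDO1, and CDC6 was at 449 and 472. E2F1, at 599 and 569, was above E2F2, at 136 and 120, and CCNE1, at 281 and 302, was above CCNE2. The lowest 3 in mock were POLE2 (108), GINS3 (81) and CCNE2 (47.9). Exon length is the union over annotated transcripts, so genes with long alternative exons read low, and which transcripts these cells use was not tested. Over 10% of exon bases was shared with other annotated genes for 9 of the 38. Beside POLA2, TYMS and CCNE2, these include MCM2 (23.6%), GINS4 (23.6%), PRIM1 (21.6%) and RRM2 (20.2%).

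**Figure D3:**
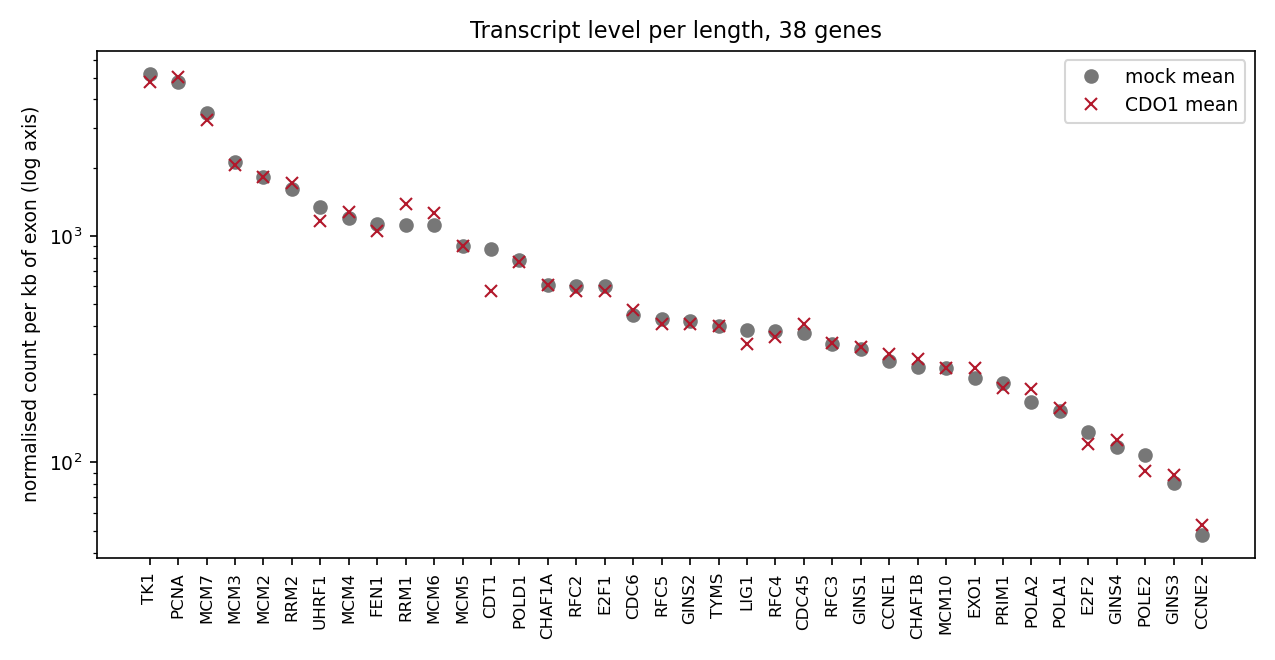
Mean normalised count per kilobase of annotated exon (vertical axis, log scale) of the 38 genes, ordered by their mock level, with grey dots for mock and red crosses for CDO1 means of 3 libraries and no error shown. Levels span from 47.9 (CCNE2) to 5194 (TK1) in mock, and dots and crosses lie close for all but a few genes, CDT1 showing the largest gap.

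GC content moved with the fold change across the 38 genes. Their longest transcripts ranged from 36.9% to 65% GC. Over the 38 genes, which share the same libraries, Spearman's rho between the log2 fold change and GC content was -0.483, beside -0.232 over the 10926 genes with a mean of at least 100. Single libraries differed: the rho between deviation from the mean and GC over the 38 was -0.664, 0.0837 and -0.354 for the CDO1 libraries in replicate order. For the mock libraries it was 0.339, 0.68 and -0.241. Mock replicate 2 and CDO1 replicate 1 thus lay at opposite ends, and mock replicate 3 lay on the side of CDO1 replicates 1 and 3. With each library's GC trend removed, rho over the 38 was -0.0874. The 6 calls and their directions held, and POLD1 (higher) and POLE2 (lower) were added, for 4 higher and 4 lower, while 29.7% of all genes were called.

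**Figure D4:**
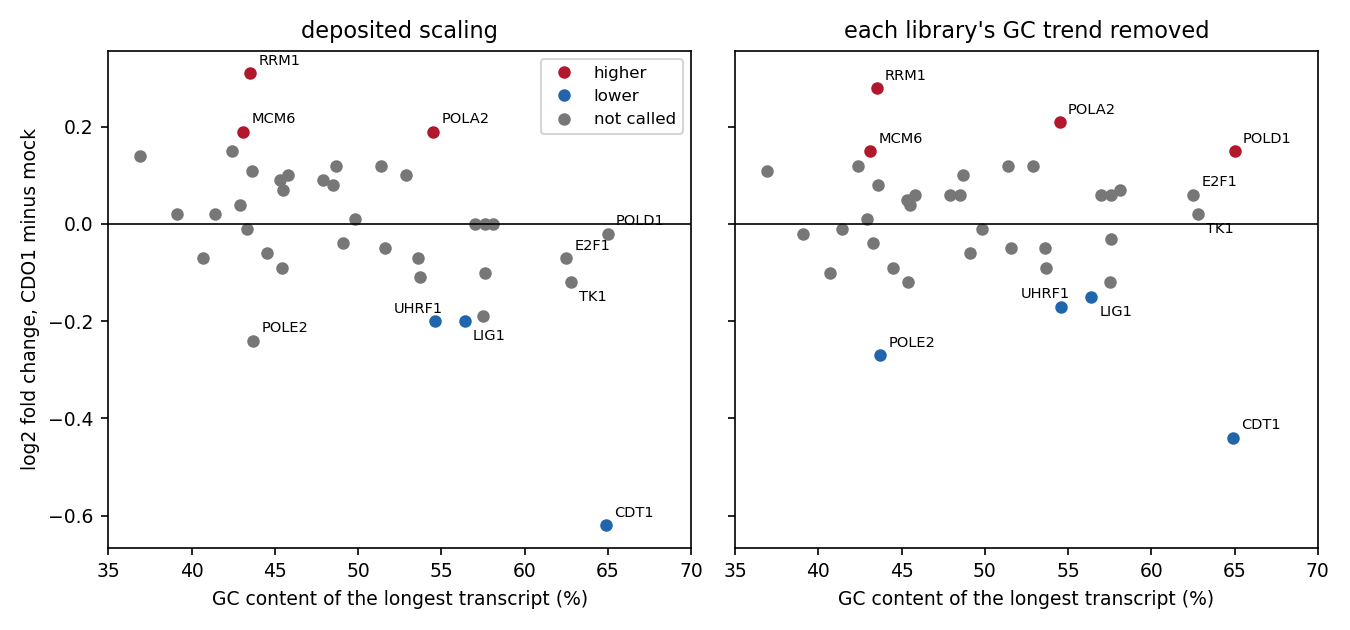
Log2 fold change (CDO1 minus mock, vertical axis) against GC content of the longest transcript (percent, horizontal axis) for the 38 genes, at the deposited scaling (left) and with each library's GC trend removed (right); colours mark calls as higher, lower or not called. The downward slope on the left (rho of -0.483) is nearly flat on the right (-0.0874), where CDT1 lies at -0.44 and POLD1 at 0.15.

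Other genes of the pathway were read from 7 lists, of whose 171 entries 168 were measured. Of the 167 tested, 24 genes were called higher and 18 lower. With library totals set equal the split was 21 and 26, beside 2068 and 3079 over all genes. For comparison, limma called 24.0% of all genes tested. It called 35.9% of those at least as abundant as the scarcest replication and E2F gene. The shares called in single lists, given below, reached at most 35.3%, so none was above the abundant background. Differences between the lists and these backgrounds were not tested. Both directions occurred in every list but that of the histones.

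Of the 17 genes of origin recognition and licensing control, 3 rose and 3 fell (35.3%, median log2 fold change 0.04). RECQL4, a helicase needed to start replication, fell from 3798, 4275 and 3354 in mock to 2688, 2754 and 2581 with CDO1 (log2 fold change -0.50, adjusted p = 1.08e-05 in limma). With the GC trend removed its log2 fold change was -0.32. MCMBP, which binds MCM subunits, fell by 0.23 on the log2 scale, and GMNN, the geminin that inhibits CDT1, fell by 0.18 (adjusted p = 0.0395 in limma). GMNN had normalised counts of 853, 798 and 837 with CDO1 and of 901, 971 and 950 in mock. ORC5, a subunit of the origin recognition complex, rose by 0.28, DONSON, which takes part in helicase assembly, by 0.30, and MCM8 by 0.16. GMNN and MCM8 did not pass in DESeq2 (adjusted p = 0.0721 and 0.0549). In limma GMNN lost its call without any 1 of the 6 libraries (adjusted p up to 0.129), and MCM8 without any but mock replicate 3 (up to 0.123) or with library totals set equal (0.088).

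Of 25 other fork and polymerase subunits, 6 rose and 2 fell (32%, median 0.03). The 4 with the smallest p among those that rose were POLE4 (log2 fold change 0.44, adjusted p = 5.89e-05 in limma), POLD3 (0.37), RNASEH2C (0.33) and TOP2A (0.21). POLE4 and POLD3 are accessory subunits of polymerases epsilon and delta, RNASEH2C belongs to the ribonuclease that removes ribonucleotides from DNA, and TOP2A is a topoisomerase. PRIM2, the partner of PRIM1 in primase, fell by 0.28, and POLE, the catalytic subunit of polymerase epsilon, by 0.19. Subunits of one enzyme thus had calls of opposite sign. In limma POLE did not pass without CDO1 replicate 1, CDO1 replicate 3 or mock replicate 1 (adjusted p up to 0.0824), nor PRIM2 without CDO1 replicate 1 (0.0582).

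Of 21 other genes of nucleotide synthesis, 3 rose and 2 fell (23.8%, median 0.07). GART, of purine synthesis, had 5282, 4763 and 5227 with CDO1 and 3976, 3850 and 4312 in mock (log2 fold change 0.33, adjusted p = 0.000165 in limma). SHMT1, of one-carbon metabolism, rose by 0.26, and ATIC, of purine synthesis, by 0.19. RRM2B, the p53-induced small subunit of ribonucleotide reductase, had 1022, 962 and 1017 with CDO1 and 1231, 1149 and 1267 in mock (log2 fold change -0.28, adjusted p = 0.00171 in limma). It was called in the opposite direction to RRM1. DCK, a salvage kinase, fell by 0.21, but did not pass in DESeq2 (adjusted p = 0.0765), or in limma without any 1 library but mock replicate 2 (up to 0.187). ATIC did not pass in limma without CDO1 replicate 1, CDO1 replicate 3 or mock replicate 2 (adjusted p up to 0.118).

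Of the 31 RB and E2F regulators, 3 rose and 5 fell (25.8%, median 0.03). The kinase CDK6, which phosphorylates RB, fell by 0.34 (adjusted p = 0.000159 in limma), from 1950, 1799 and 2008 in mock to 1554, 1463 and 1528 with CDO1. Inhibitors of CDK4 and CDK6 fell too: CDKN2C by 0.55 (adjusted p = 0.00241 in limma), and CDKN2B, at 81.55, 76.07 and 74.66 in mock and 64.09, 47.08 and 50.51 with CDO1, by 0.53 (adjusted p = 0.026 in limma). The 2 atypical E2F repressors had calls of opposite sign. E2F7 had a log2 fold change of -0.26 (adjusted p = 0.00672 in limma) and E2F8 of 0.26 (adjusted p = 0.0177 in limma). TFDP2, a partner of E2F factors, fell by 0.24. RBL2, an RB relative, rose by 0.25, and CDC25A, a phosphatase that activates CDK2, by 0.20. CDKN2B did not pass in DESeq2 (adjusted p = 0.107), or in limma without CDO1 replicate 2, CDO1 replicate 3 or mock replicate 1 (up to 0.0981). The limma call of E2F8 was lost without CDO1 replicate 1, CDO1 replicate 3 or mock replicate 2 (adjusted p up to 0.1), and that of RBL2 without CDO1 replicate 1, CDO1 replicate 2 or mock replicate 2 (up to 0.0884). CDC25A lost its call without CDO1 replicate 2 or CDO1 replicate 3 (up to 0.067), and TFDP2 without CDO1 replicate 1 (0.0591). CDK6, CDKN2C and E2F7 passed in all 20 alternatives.

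Of 22 other S phase targets of E2F, 5 rose and 1 fell (27.3%, median 0.07). DEK, a chromatin protein, rose by 0.30, CENPU, of the centromere, by 0.32, and CDCA7, a chromatin factor, by 0.22. RBBP4, a histone-binding protein shared by CAF-1 and other complexes, fell by 0.28 (adjusted p = 0.000701 in limma), while its CAF-1 partners CHAF1A and CHAF1B did not pass. DEK, CENPU, CDCA7 and RBBP4 passed in all 20 alternatives.

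Of 36 mitosis genes, 3 rose and 5 fell (22.2%, median -0.03). BIRC5, or survivin, fell by 0.24, UBE2C, of the machinery that degrades cyclin B, by 0.25, CENPF, of the kinetochore, by 0.18, and CDC20, the activator of that machinery, by 0.14. With the GC trend removed CDC20 had a log2 fold change of -0.08 (adjusted p = 0.126 in limma). KIF11, a spindle motor, rose by 0.18, CENPA, the centromeric histone, by 0.25, and ECT2, needed for cytokinesis, by 0.20. In limma CENPA and KIF11 lost their calls without CDO1 replicate 1, CDO1 replicate 3 or mock replicate 1 (adjusted p up to 0.0698 and 0.109). ECT2 lost its call without those libraries or mock replicate 2 (up to 0.152) and with library totals set equal (0.0569), and CDC20 without any 1 library but mock replicate 3 (up to 0.133). Of the 15 replication-dependent histone genes tested, only HIST1H1C passed (6.67%, log2 fold change 0.80, adjusted p = 0.000273 in limma). It was at 134, 135 and 126 with CDO1 and at 86.93, 78.02 and 62.22 in mock. The histone list had the widest spread, from -0.92 to 0.80, and none of its 95% intervals lay within 1.25-fold. Many of these genes had only a few reads per library. HIST1H2BC, the gene at -0.92, had 6, 1 and 6 reads with CDO1 and 8, 7 and 8 in mock. The spread of this list therefore cannot be set against that of the better covered lists. How messages without poly(A) tails entered the libraries is not given in the labels.

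**Figure D5:**
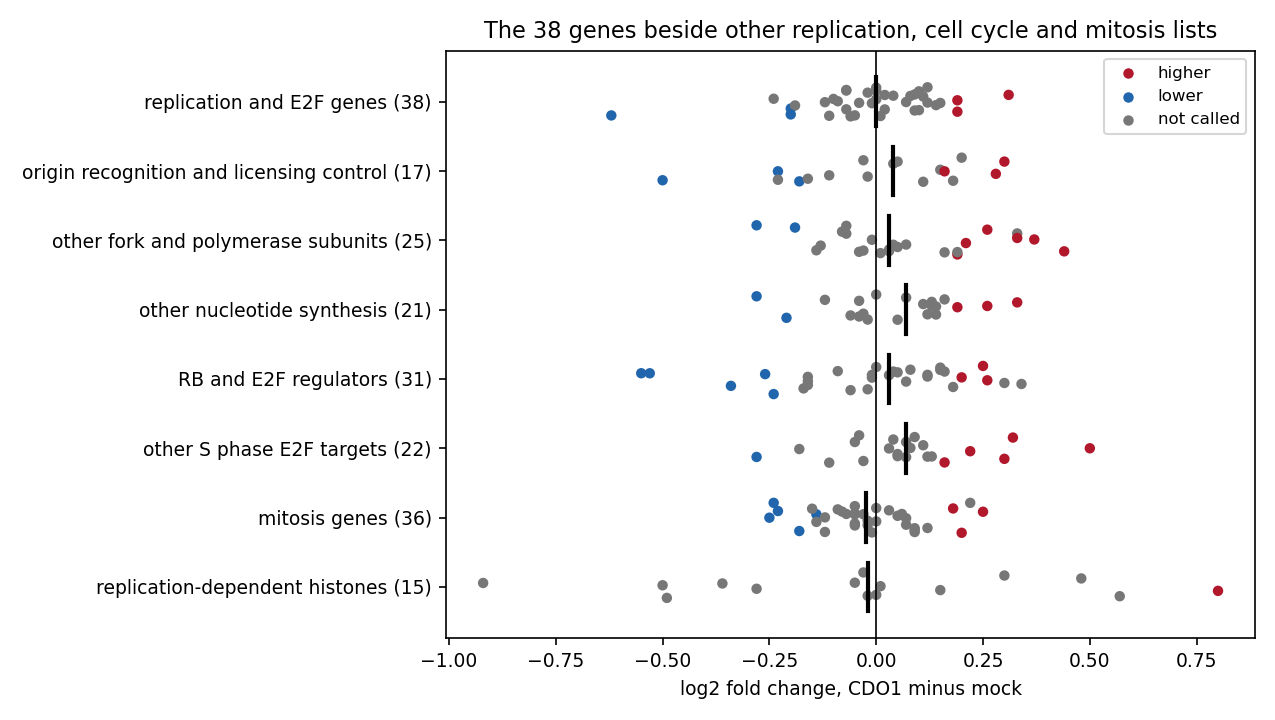
Log2 fold change (CDO1 minus mock, horizontal axis) of every tested gene of the 38 and of 7 other lists, with the number tested in brackets, black bars at the list medians and colours for calls; the vertical scatter within a row has no meaning. Medians lie between -0.03 and 0.07, and each list but the histones holds calls in both directions.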

How the data were processed

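STAR 2.5.1b, DESeq2 1.10.1 and the build GRCh38 are named, per the submitters' processing notes. The sources used here do not name the counter, annotation release or strand setting. The signal values deposited by the authors are gene counts divided by a size factor. Whole reads were recovered from those steps for 100% of values, to within 0.001 of a read. The log2 fold changes and adjusted p-values that the authors deposited beside them were kept apart.

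The test was limma 3.58.1 (trend) on log2(normalised count + 1) with a minimum mean of 1 over the 6 libraries, group as the sole term and Benjamini-Hochberg adjustment over 21775 genes at 0.05. The added 1 shrinks the fold changes of scarce genes. edgeR 4.0.16 and DESeq2 1.42.0 ran on the recovered reads, and the closing results give all 20 alternatives. Fold values divide one group's mean normalised count by the other's. All ran in R 4.3.3. The fits were tested on simulated data. Gene names came from a reference table (26577 identifiers) and GENCODE release 29, on GRCh38, gave coordinates, exons and GC content (26742). No library pair of a group agreed within sampling noise (chi-square per degree of freedom 2.1 to 8.29, and 15.8 to 25.2 between groups), so all were kept.

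All 38 genes are accounted for, and of each other list up to 4 called genes with the smallest p per direction are named, with every called RB or E2F regulator. One gene that this rule names is not reported here. The genes and lists were chosen with earlier results of these data known. Reads carry no molecular identifiers and are not independent molecules, so a limit from a count covers counting error only.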

Additional observations from a re-analysis of the deposited data

How the results depend on the processing

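RRM1, CDT1 and LIG1 kept their calls and directions in all 20 alternatives, MCM6 in 17, UHRF1 in 15 and POLA2 in 12. With library totals set equal, the median log2 fold change of the 38 genes was -0.023, and with the GC trend removed it was 0.029, with or without the replicate block. At an adjusted p under 0.01, 1543 of all genes were called higher and 1909 lower. Of the 38, 1 (RRM1) was higher and 2 were lower, and 14 genes of the lists were higher and 11 lower. With the GC trend removed, 38 genes of the lists were higher, beside 3362 of all 21564 genes tested, and POLD1 turned to 0.15. With the GC trend removed and the replicate block, 5 of the 38 were higher (CDC45 among them), 41 genes of the lists were higher and 28 lower, and POLD1 was at 0.15. Of all 21564 genes tested in that setting, 3463 were called higher and 3095 lower. With single libraries left out, 1 to 3 of the 38 were called higher and 2 to 5 lower, and 15 to 36 genes of the lists were higher and 11 to 21 lower. Calls over all genes moved too, from 1749 to 2607 higher and from 2162 to 2885 lower. The lowest count of higher genes, 1 of the 38, came without CDO1 replicate 1 or CDO1 replicate 3, and the highest count of lower genes, 5, without mock replicate 3. In the lists the lowest counts were 15 higher without CDO1 replicate 3 and 11 lower without CDO1 replicate 1. These fits left 2 libraries in a group and pooled the spread. The other alternatives (pseudocounts of 0.5 and 5, no filter, a mean of at least 10, edgeR with 2 scalings, DESeq2, protein-coding genes only and the authors' deposited values) moved none of the counts over all genes, over the 38 or over the lists together by over 1.5 times. Counts of single lists, of at most 6 calls a direction, moved more. Over all 20 alternatives the calls higher and lower were 2 to 6 and 2 to 4 for origin recognition, 5 to 7 and 0 to 4 for fork subunits, 2 to 8 and 1 to 3 for nucleotide synthesis, 0 to 7 and 4 to 7 for RB and E2F regulators, 4 to 7 and 1 to 2 for S phase targets, 0 to 6 and 2 to 9 for mitosis, and 1 to 2 and 0 for histones. Among genes called under neither setting the sign changed 42 times, in 11 of the 38, with sizes of at most 0.12 and 0.10 on the log2 scale. Replicate numbers were shared by the groups, but same-numbered libraries deviated together with correlations of 0.0777, 0.299 and 0.0862, and CDO1 replicate 1 correlated best with mock replicate 3 (0.189). With the replicate number as a block, 4 of the 38 were higher (EXO1 added), 4 were lower (E2F2 added) and 37 genes of the lists were higher. The block also raised the calls over all 21775 genes tested, to 2845 higher and 3073 lower, from 2467 and 2762. The cause of these changes was not tested. The lowest count among the 38 genes was 175 reads, and CCNE2, POLE2 and GINS3, the 3 scarcest, had the largest standard errors (0.10, 0.11 and 0.09).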
